A study of Mus musculus with 20 samples.

Results

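The 37 genes described here encode enzymes of cholesterol and fatty acid synthesis, the factors that set their transcription, and 4 genes of the LXR branch, in which sterol-derived ligands turn on cholesterol export. They were taken by symbol from the 23992 symbols in the deposited tables, and for each the RefSeq transcript that collected most reads across the 20 libraries was used; Msmo1 is listed there under its older symbol Sc4mol. Poly(A) RNA was sequenced from 15 mouse regulatory T cell (Treg) libraries and 5 CD8+ T cell libraries. Tregs were sorted for GFP from Foxp3-EGFP reporter mice and CD8+ T cells were isolated from wild-type mice, in each case from spleen and lymph node. The labels give the strain of all 20 samples as C57BL/6N, whereas the study's methods name C57BL/6J for the CD8+ T cells. Cells of each type were left unstimulated or were exposed ex vivo to 200 nM IL-2 or 200 nM IL-2-REH for 1.5 hr or 4 hr. The unstimulated libraries are labelled 0 hr, and no library was kept without cytokine for 1.5 hr or 4 hr. Against them, an effect of the cytokine cannot be told apart from one of time in culture. IL-2-REH is a partial agonist, an IL-2 mutein changed where it contacts the common gamma chain of the receptor. Each of the 5 Treg groups holds 3 libraries, numbered 1 to 3, and each CD8+ group holds 1, so no CD8+ difference has a replicate check.

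Cholesterol is built from acetyl-CoA through the mevalonate pathway, which ends in squalene, and then through the sterol steps that turn lanosterol into cholesterol. SREBP-2 (Srebf2) drives most of these enzymes and SREBP-1 (Srebf1) drives the fatty acid enzymes; SCAP carries both out of the endoplasmic reticulum when sterols are low, and INSIG proteins hold them back when sterols are high. T cells that are about to divide draw on both pathways for new membrane.

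Total exon reads per library ran from 20201392 to 63903764 in Tregs and from 38201668 to 45189835 in CD8+ T cells, and no pair of libraries was identical. Foxp3, which defines Tregs, was at 65.2 to 252 RPKM (reads scaled to exon length and library size) in the Treg libraries and at 0.482 to 0.999 RPKM in the CD8+ libraries. Unstimulated Treg replicate 1 stood apart from the other unstimulated libraries. Ramp3, a receptor partner that was at 70.4 to 239 RPKM in all 12 stimulated Treg libraries, was at 219 RPKM there and at 2.91 and 2.25 RPKM in replicates 2 and 3. Cish, a feedback inhibitor induced by IL-2, was not set apart in it, at 54.7 RPKM against 65.5 and 54.0 RPKM. Results that rest on this library are therefore given with and without it.

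Across the 15 Treg libraries the most abundant member was Elovl5, at a mean of 71.3 RPKM, followed by Acly at 40.1, Srebf2 at 39.7 and Nr1h2 at 38.8 RPKM. Scd1 and Fads2 were the lowest, at 0.54 and 0.299 RPKM. Elovl5, Acly, Srebf2 and Nr1h2 thus stood above all of the sterol enzymes, which ran from 1.4 RPKM for Tm7sf2 to 18.9 RPKM for Sc5d. The elongase Elovl6, at 13.7 RPKM, and the transcription factor Srebf1, at 15.7 RPKM, lay within that range. All 37 members passed the filter on low counts in Tregs. The map of member levels over the libraries shows these values relative to each gene's own mean.

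**Figure D1:**
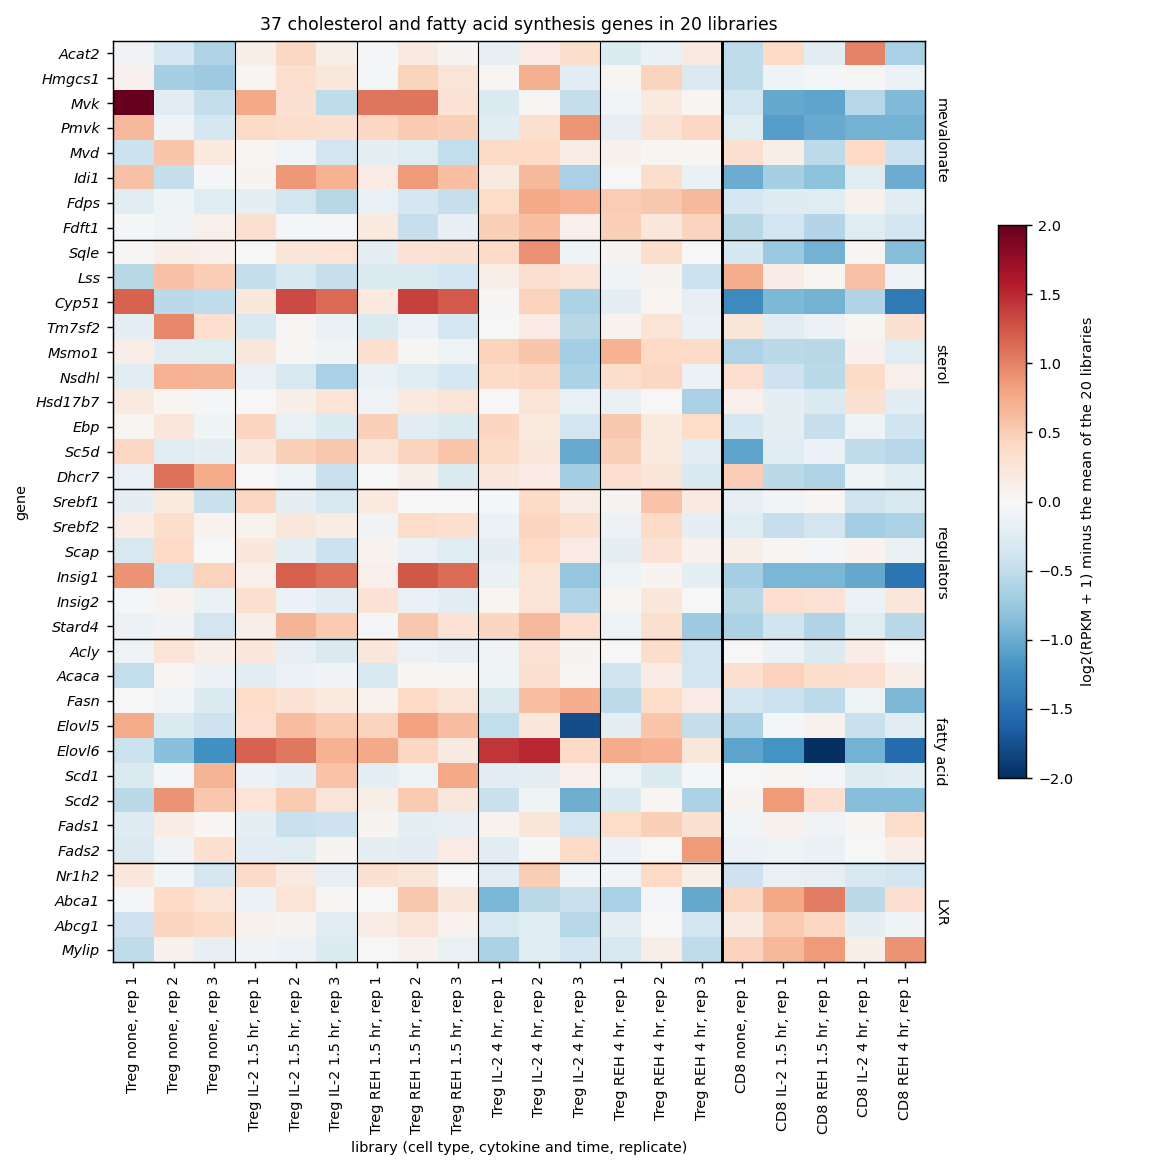
Each cell is 1 gene (rows, grouped by role) in 1 library (columns, grouped by cell type, cytokine and time), coloured by log2(RPKM + 1) minus that gene's mean over the 20 libraries. Elovl6 is low in the 3 unstimulated Treg libraries and in all 5 CD8+ libraries, and unstimulated Treg replicate 1 has high Cyp51, Mvk and Insig1 beside its 2 counterparts.

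Promoters of 3 members are printed because they sit with the main patterns below: Elovl6, the member that changed most in Tregs, and Hmgcs1 and Cyp51, which were both higher after 1.5 hr of either cytokine than unstimulated in Treg replicates 2 and 3. Each window runs from 250 bases before to 50 bases after the transcription start in RefSeq, build GRCm38.p6, and is written 5′ to 3′ on the gene's strand. They lie at chr3:129532136-129532435 on the plus strand for Elovl6, at chr13:119690101-119690400 on the plus strand for Hmgcs1 and at chr5:4104648-4104947 on the minus strand for Cyp51. Capitals mark matches, on either strand, to the sterol regulatory element TCACNCCAC and to the NF-Y box CCAAT, which reads ATTGG on the other strand; no match overlapped another.
Elovl6: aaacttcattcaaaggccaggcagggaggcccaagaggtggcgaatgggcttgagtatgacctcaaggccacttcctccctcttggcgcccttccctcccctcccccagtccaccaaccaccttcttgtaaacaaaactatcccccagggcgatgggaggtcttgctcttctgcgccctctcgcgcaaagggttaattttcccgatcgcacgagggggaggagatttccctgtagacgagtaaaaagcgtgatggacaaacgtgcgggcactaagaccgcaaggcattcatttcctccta
Hmgcs1: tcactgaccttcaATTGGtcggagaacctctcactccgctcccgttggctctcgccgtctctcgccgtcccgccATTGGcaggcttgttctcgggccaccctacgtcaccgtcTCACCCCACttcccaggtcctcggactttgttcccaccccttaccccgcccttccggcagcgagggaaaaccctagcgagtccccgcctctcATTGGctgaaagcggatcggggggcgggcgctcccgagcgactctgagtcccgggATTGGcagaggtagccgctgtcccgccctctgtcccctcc
Cyp51: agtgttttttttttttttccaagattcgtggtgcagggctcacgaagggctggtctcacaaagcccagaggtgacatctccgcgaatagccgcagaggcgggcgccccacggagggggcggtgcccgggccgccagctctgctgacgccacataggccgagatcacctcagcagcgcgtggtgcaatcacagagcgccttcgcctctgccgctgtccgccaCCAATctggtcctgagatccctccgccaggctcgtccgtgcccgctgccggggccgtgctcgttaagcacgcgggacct
The Hmgcs1 window held 1 sterol regulatory element and 4 NF-Y boxes, the Cyp51 window 1 NF-Y box, and the Elovl6 window no match. Of the 29 members with a window in the table, 22 (75.9%) held an NF-Y box, against 41.1% of the 27025 genes with a window. Those with a box included all 9 of the sterol enzymes with a window and 5 of the 6 mevalonate enzymes. A gene with several windows was counted if any of them held a match, among the members and over all genes. For Dhcr7 the boxes lay only in the window at chr7:143829964-143830263, and its windows nearer the start of the gene held none. Hmgcs1 was the 1 member with the sterol regulatory element, which 1.44% of all genes held, and none of the 29 held the LXR element DR4 with up to 1 mismatch, which 0.278% of all genes held. These matches describe letters in a window, not bound sites. Fdps, Fdft1, Sqle, Stard4, Scd1, Scd2, Fads1 and Abcg1 had no window in the table.

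In Tregs, few members changed against unstimulated cells when all 15 libraries were used. After 1.5 hr of IL-2, 1 of 37 members rose and 0 fell, where 0.854% of the 14992 genes tested were called (adjusted p under 0.05, edgeR). After 4 hr of IL-2, 2 members rose and 0 fell, against a background of 2.26%. IL-2-REH gave 0 calls among the members after 1.5 hr, with 0.0934% of genes called, and 2 rises and 0 falls after 4 hr, with 0.314% called. The called genes were Elovl6 in 3 of these comparisons and Fdps in both 4 hr comparisons. The 0 calls for IL-2-REH at 1.5 hr stood beside 1 call by DESeq2 and 0 by limma. An unadjusted p under 0.05 (edgeR) was seen for 7 members and for 1702 of the 14992 genes. The shares of all genes called by DESeq2 and limma were not counted.

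With the replicate number as a block, IL-2-REH at 1.5 hr gave 1 called member, Elovl6, where 0.213% of genes were called. Under the block 4 hr of IL-2 gave 3 called members, 2 higher and 1 lower, against 6.94% of genes. Without unstimulated replicate 1, 7 members were called after 1.5 hr of IL-2, 4 higher and 3 lower, but 12.9% of the 15494 genes then tested were called too. After 4 hr of IL-2 there were 3 rises and 3 falls, against 8.87% of genes. IL-2-REH gave 5 rises and 2 falls at 1.5 hr, against 12.1%, and 2 rises and 2 falls at 4 hr, against 6.93%. With the block added to that fit, the members called numbered 15 and 13 after 1.5 hr and 4 hr of IL-2, against 26.9% and 21% of genes, and 16 and 10 for IL-2-REH, against 25.4% and 16.7%. Leaving out replicate 1 of every group gave 12 and 9 for IL-2, against 17.3% and 13.4% of 14478 genes, and 11 and 3 for IL-2-REH, against 15.7% and 10.7%. The calls thus multiplied over all genes and not among the members alone. Nothing in the labels says that the replicates came from separate animals, so these p-values measure the spread between these libraries, which may be technical.

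Elovl6, the enzyme that lengthens palmitate to stearate, was the member with the largest change in Tregs. The gene lies at chr3:129532386-129638495 on the plus strand of GRCm38.p6. Elovl6 RPKM in replicates 1, 2 and 3 was 6.06, 4.3 and 3.08 unstimulated, 20.5, 18.7 and 14.4 after 1.5 hr of IL-2, 15, 11.7 and 9.78 after 1.5 hr of IL-2-REH, 24.5, 26.1 and 11.5 after 4 hr of IL-2 and 14.8, 14.3 and 10.1 after 4 hr of IL-2-REH. Every stimulated Treg library lay above all 3 unstimulated ones, and the group means rose from 4.48 ± 1.5 RPKM to 17.9 ± 3.13 RPKM after 1.5 hr of IL-2 (SD, n = 3). The log2 fold change was 2.099 ± 0.30 (SE) after 1.5 hr of IL-2, with an adjusted p of 0.00359 in edgeR, and 2.23 ± 0.30 after 4 hr, with an adjusted p of 0.00219. After IL-2-REH it was 1.53 ± 0.30 at 1.5 hr (adjusted p = 0.111, edgeR) and 1.52 ± 0.30 at 4 hr (adjusted p = 0.0499, edgeR). The blocked fit gave 1.59 ± 0.22 with an adjusted p of 0.0134 for the former, and the fit without unstimulated replicate 1 gave 1.94 ± 0.28 with an adjusted p of 0.00108. Elovl6 was called after 1.5 hr of IL-2-REH in 5 of 18 fits, and over all 18 its log2 fold change was 1.28 to 1.94.

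The IL-2 calls for Elovl6 held in 15 of 18 fits at 1.5 hr and in 16 of 18 at 4 hr. They were lost at 1.5 hr without replicate 2 (log2 fold change 1.92, adjusted p = 0.514, edgeR) and without replicate 3 (1.93, adjusted p = 0.0971), and at 4 hr without replicate 2 (1.998, adjusted p = 0.254). Both were also lost when only the groups compared were fitted (adjusted p = 0.0585 and 0.114, edgeR). The 4 hr IL-2-REH call held in 9 of 18 fits and was lost without any 1 of the 3 IL-2-REH libraries at that time, without unstimulated replicate 2 or 3, without replicate 2 or 3 throughout, with only the groups compared and with limma, with log2 fold changes of 1.31 to 1.64. Its direction was the same in all of these fits. An exon of Elovl6 overlaps the predicted gene Gm35986 in GENCODE, and counting by strand was not given in the sources used here, so reads from the pair cannot be told apart; 11 members share exon sequence with another annotated gene in this way.

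The other fatty acid genes showed no called change with all 15 libraries. Elovl5, which elongates polyunsaturated fatty acids, had RPKM values of 103, 50.2 and 45.8 unstimulated, 77.5, 94.3 and 89 after 1.5 hr of IL-2, 84.3, 108 and 94.7 after 1.5 hr of IL-2-REH, 43.5, 72 and 17.2 after 4 hr of IL-2 and 53.8, 90.8 and 43.9 after 4 hr of IL-2-REH. In replicates 2 and 3 the 1.5 hr libraries were higher than the unstimulated one for either cytokine, while in replicate 1 the unstimulated library was the highest. Acly, which makes cytosolic acetyl-CoA from citrate, had RPKM values of 36.3, 47.7 and 42.9 unstimulated, 45.5, 35 and 32 after 1.5 hr of IL-2, 46.2, 36 and 34.9 after 1.5 hr of IL-2-REH, 37.4, 48.4 and 40.6 after 4 hr of IL-2 and 39.1, 50.1 and 30.1 after 4 hr of IL-2-REH. Those groups overlapped throughout. Fasn, the fatty acid synthase, had RPKM values of 17.8, 17.1 and 14.4 unstimulated, 23.2, 22 and 20.5 after 1.5 hr of IL-2, 18.8, 23.8 and 21.5 after 1.5 hr of IL-2-REH, 14.4, 27.6 and 30 after 4 hr of IL-2 and 12.1, 23.2 and 20 after 4 hr of IL-2-REH. All 6 of the 1.5 hr libraries, at 18.8 to 23.8 RPKM, lay above all 3 unstimulated ones. With all libraries its log2 fold change at 1.5 hr was 0.55 ± 0.29 for IL-2 (adjusted p = 0.418, edgeR) and 0.52 ± 0.29 for IL-2-REH (adjusted p = 0.497). With replicate 1 left out of every group Fasn rose by 0.74 ± 0.18 (adjusted p = 0.0256, edgeR) and 0.81 ± 0.18 (adjusted p = 0.0183), and by 1.01 ± 0.18 after 4 hr of IL-2 (adjusted p = 0.00957), where all libraries gave 0.61 ± 0.29. Acaca, which makes malonyl-CoA, ran from 2.59 to 5.29 RPKM in Tregs. Fads1, a desaturase, ran from 2.11 to 4.87 RPKM.

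Fdps, the synthase of farnesyl diphosphate in the mevalonate pathway, separated by time rather than by cytokine. It lies at chr3:89093588-89101967 on the minus strand, where an exon overlaps the predicted gene Gm43738. Fdps RPKM in replicates 1, 2 and 3 was 11.5, 12.6 and 11.2 unstimulated, 11.7, 10.2 and 8.76 after 1.5 hr of IL-2, 12, 10.4 and 9.49 after 1.5 hr of IL-2-REH, 17.6, 23.5 and 22.4 after 4 hr of IL-2 and 19.6, 20 and 21.7 after 4 hr of IL-2-REH. All 6 of the 4 hr libraries lay above all 9 of the others, and the unstimulated and 1.5 hr libraries overlapped. The log2 fold change at 4 hr against unstimulated cells was 0.91 ± 0.15 for IL-2 (adjusted p = 0.00823, edgeR) and 0.80 ± 0.15 for IL-2-REH (adjusted p = 0.0448, edgeR). At 1.5 hr it was -0.07 ± 0.15 and -0.02 ± 0.15.

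Fdps also led the comparisons between times. Between 1.5 hr and 4 hr of IL-2 its log2 fold change was 0.99 ± 0.15 (adjusted p = 0.0563, edgeR) and with the block it was 0.98 ± 0.16 (adjusted p = 0.0255). Between 1.5 hr and 4 hr of IL-2-REH it was 0.82 ± 0.15 (adjusted p = 0.197, edgeR). For IL-2 over time, 0 members and 0% of genes were called by edgeR with all libraries. An unadjusted p under 0.05 (edgeR) was seen for 9 members and for 2556 of the 14992 genes. DESeq2 called 2 members and limma 0, and the blocked fit called 1 member and 0.387% of genes. For IL-2-REH over time the counts were 0 of 37 members and 0% of genes by edgeR, 2 members by DESeq2 and 0 by limma. Here 9 members and 2187 of the 14992 genes had an unadjusted p under 0.05 (edgeR). Leaving out unstimulated replicate 1, which bears on these comparisons only through the shared estimate of the spread, gave Fdps as the 1 member called in both, with 0.678% and 0.458% of genes called. The 4 hr call for IL-2 held in 14 of 18 fits and was lost without replicate 2 (log2 fold change 0.88), without replicate 3 (0.80), without unstimulated replicate 3 (0.89) or with only the groups compared (0.93). That for IL-2-REH held in 8 of 18 fits and was lost without any 1 of the 3 IL-2-REH libraries at 4 hr or without unstimulated replicate 2 or 3, and in the other fits that lost it, at 0.70 to 0.87.

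Hmgcs1, which condenses acetyl-CoA units at the entry to the pathway, and Acat2, which makes the acetoacetyl-CoA it uses, were called in the fit without unstimulated replicate 1 and not with all 15 libraries or with the block. Hmgcs1 RPKM in replicates 1, 2 and 3 was 16.4, 9.31 and 8.92 unstimulated, 15.8, 19.6 and 18.1 after 1.5 hr of IL-2, 15.2, 21.4 and 18.7 after 1.5 hr of IL-2-REH, 15.9, 25.9 and 13.2 after 4 hr of IL-2 and 15.9, 21.4 and 12.4 after 4 hr of IL-2-REH. In replicates 2 and 3 every stimulated library was above the unstimulated one, and in replicate 1 the 5 libraries lay between 15.2 and 16.4 RPKM. Without unstimulated replicate 1, Hmgcs1 rose by 1.21 ± 0.29 (log2, adjusted p = 0.0156, edgeR) after 1.5 hr of IL-2 and by 1.25 ± 0.29 after 1.5 hr of IL-2-REH, and with all libraries the values were 0.74 ± 0.32 (adjusted p = 0.323) and 0.79 ± 0.32 (adjusted p = 0.403). It also rose by 1.12 ± 0.29 after 4 hr of IL-2 in the former fit, against 0.67 ± 0.32 with all libraries (adjusted p = 0.289, edgeR). Acat2 RPKM in replicates 1, 2 and 3 was 6.84, 5.55 and 4.41 unstimulated, 8.02, 9.97 and 7.92 after 1.5 hr of IL-2, 7.06, 8.36 and 7.55 after 1.5 hr of IL-2-REH, 6.34, 8.2 and 9.53 after 4 hr of IL-2 and 5.83, 6.48 and 8.32 after 4 hr of IL-2-REH. Its stimulated libraries lay above the unstimulated one in replicates 2 and 3. Without unstimulated replicate 1 it rose by 1.03 ± 0.27 (log2) after 1.5 hr of IL-2, and with all libraries the value was 0.76 ± 0.27.

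Mvk, mevalonate kinase, showed how far that library mattered. Mvk RPKM in replicates 1, 2 and 3 was 24.1, 3.73 and 2.98 unstimulated, 8.33, 5.79 and 2.88 after 1.5 hr of IL-2, 10.6, 10.6 and 5.73 after 1.5 hr of IL-2-REH, 3.5, 4.59 and 2.97 after 4 hr of IL-2 and 4.33, 5.33 and 4.65 after 4 hr of IL-2-REH. Its level in unstimulated replicate 1 was the highest of the 20 libraries, while the other unstimulated libraries were at the low end. The log2 fold change after 1.5 hr of IL-2-REH was -0.19 ± 0.63 with all libraries (adjusted p = 0.937, edgeR) and 1.63 ± 0.32 without that library (adjusted p = 0.00657), so its sign turned. Mvd, a later decarboxylase of the pathway, had RPKM values of 2.73, 6.34 and 4.74 unstimulated, 4.14, 3.81 and 2.9 after 1.5 hr of IL-2, 3.42, 3.22 and 2.58 after 1.5 hr of IL-2-REH, 5.54, 5.61 and 4.55 after 4 hr of IL-2 and 4.33, 4.16 and 4.09 after 4 hr of IL-2-REH. Mvd was lowest in unstimulated replicate 1 among the unstimulated libraries, and without it fell by 0.62 ± 0.18 (log2) after 1.5 hr of IL-2-REH, against -0.41 ± 0.22 with all libraries (adjusted p = 0.479, edgeR). The remaining mevalonate genes Pmvk, Idi1 and Fdft1 ran from 4.62 to 12.2, from 5.45 to 17.4 and from 5.5 to 12.5 RPKM in Tregs. They were not called with all libraries. With replicate 1 left out of every group, Idi1 was called higher after 1.5 hr of either cytokine. In that fit Pmvk was called higher after 1.5 hr of IL-2-REH and after 4 hr of IL-2. The fit called 17.3% and 15.7% of genes after 1.5 hr of IL-2 and IL-2-REH, and 13.4% after 4 hr of IL-2.

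Among the sterol enzymes, Cyp51, the lanosterol demethylase, had the widest swing. Cyp51 RPKM in replicates 1, 2 and 3 was 23.2, 6.3 and 6.51 unstimulated, 11.4, 25.7 and 22.5 after 1.5 hr of IL-2, 11.2, 26.4 and 23.9 after 1.5 hr of IL-2-REH, 9.84, 13.6 and 5.85 after 4 hr of IL-2 and 8.45, 10 and 8.51 after 4 hr of IL-2-REH. In replicates 2 and 3 it was at 6.3 and 6.51 RPKM unstimulated and at 22.5 to 26.4 RPKM after 1.5 hr of either cytokine, and it was lower again by 4 hr. In replicate 1 the unstimulated library held the highest level and the later libraries held less. The log2 fold change after 1.5 hr of IL-2 was 0.83 ± 0.55 with all libraries (adjusted p = 0.531, edgeR) and 1.90 ± 0.47 without unstimulated replicate 1 (adjusted p = 0.0199). After IL-2-REH it was 0.87 ± 0.55 and 1.94 ± 0.48. Exons of Cyp51 overlap those of Akap9.

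The other sterol enzymes were mixed in direction. In the fit without unstimulated replicate 1, 6 of the 10 sterol genes had a higher and 4 a lower level after 1.5 hr of either cytokine. Of these Cyp51 was the 1 called higher, and those called lower numbered 3 for IL-2 and 1 for IL-2-REH. Lss, which closes the ring of lanosterol, had RPKM values of 0.949, 3.28 and 3.01 unstimulated, 1.06, 1.31 and 1.08 after 1.5 hr of IL-2, 1.37, 1.33 and 1.18 after 1.5 hr of IL-2-REH, 2.12, 2.61 and 2.4 after 4 hr of IL-2 and 1.71, 1.95 and 1.11 after 4 hr of IL-2-REH. Without unstimulated replicate 1 it fell by 1.21 ± 0.24 (log2, adjusted p = 0.00612, edgeR) after 1.5 hr of IL-2, and fell by 1.06 ± 0.24 after 1.5 hr of IL-2-REH, against values of -0.87 ± 0.33 and -0.71 ± 0.33 with all libraries that did not pass. Dhcr7, the last reductase of the pathway, had RPKM values of 3.81, 10.4 and 7.91 unstimulated, 4.29, 4.01 and 2.88 after 1.5 hr of IL-2, 4.31, 4.79 and 3.38 after 1.5 hr of IL-2-REH, 5.19, 4.94 and 2.29 after 4 hr of IL-2 and 5.67, 5.29 and 3.28 after 4 hr of IL-2-REH. Nsdhl, which acts on the same methyl groups as Msmo1, had RPKM values of 3.13, 6.81 and 6.74 unstimulated, 3.38, 2.84 and 2.08 after 1.5 hr of IL-2, 3.38, 3.06 and 2.78 after 1.5 hr of IL-2-REH, 5.27, 5.41 and 2.09 after 4 hr of IL-2 and 5.12, 5.41 and 3.43 after 4 hr of IL-2-REH. Both were at or below 4.79 RPKM in all 6 of the 1.5 hr libraries and at or above 6.74 RPKM in unstimulated replicates 2 and 3. In the fit without unstimulated replicate 1, Dhcr7 fell by 1.08 ± 0.29 (log2) and Nsdhl fell by 1.09 ± 0.30 after 1.5 hr of IL-2, where the values with all libraries were -0.81 ± 0.32 and -0.86 ± 0.31. In that fit Dhcr7 also fell by 1.01 ± 0.29 after 4 hr of IL-2 and Lss fell by 0.91 ± 0.24 after 4 hr of IL-2-REH, against -0.74 ± 0.32 (adjusted p = 0.242, edgeR) and -0.56 ± 0.33 (adjusted p = 0.503) with all libraries.

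The most abundant sterol enzymes were not called with all libraries, with the block or without unstimulated replicate 1. Sc5d, the sterol desaturase, had RPKM values of 21.8, 13.4 and 14 unstimulated, 18.8, 22.7 and 24 after 1.5 hr of IL-2, 19.5, 22.3 and 24.2 after 1.5 hr of IL-2-REH, 21.4, 18.8 and 7.48 after 4 hr of IL-2 and 22.9, 18.5 and 13.7 after 4 hr of IL-2-REH. Its pattern in replicates 2 and 3, higher at 1.5 hr than unstimulated, was again absent from replicate 1. With replicate 1 left out of every group Sc5d rose by 1.08 ± 0.32 (log2, adjusted p = 0.0468, edgeR) after 1.5 hr of IL-2, against 0.54 ± 0.36 with all libraries (adjusted p = 0.527). Ebp, the sterol isomerase, had RPKM values of 14.2, 16.3 and 12.9 unstimulated, 18.9, 12.4 and 11.2 after 1.5 hr of IL-2, 19.5, 11.6 and 11.1 after 1.5 hr of IL-2-REH, 18.9, 15.9 and 10.5 after 4 hr of IL-2 and 20.4, 15.9 and 18.1 after 4 hr of IL-2-REH. Ebp groups overlapped throughout. Sqle, Tm7sf2, Msmo1 and Hsd17b7 ran from 3.62 to 8.86, from 0.593 to 3.59, from 5.89 to 16.9 and from 0.534 to 1.91 RPKM in Tregs.

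None of the 6 regulators was called with all 15 libraries, with the block or without unstimulated replicate 1. Insig1, an endoplasmic reticulum anchor of the SREBPs and itself an SREBP target, had RPKM values of 37, 14.6 and 27.2 unstimulated, 21, 45.7 and 42.7 after 1.5 hr of IL-2, 20.8, 47.5 and 43.4 after 1.5 hr of IL-2-REH, 17.6, 23.7 and 10.9 after 4 hr of IL-2 and 18.1, 20.1 and 17.1 after 4 hr of IL-2-REH. The 1.5 hr libraries of replicates 2 and 3 were the highest at 42.7 to 47.5 RPKM, and those of replicate 1 were at 21 and 20.8 RPKM, below its unstimulated library. With replicate 1 left out of every group Insig1 rose by 1.35 ± 0.37 (log2, adjusted p = 0.0361, edgeR) after 1.5 hr of IL-2 and by 1.37 ± 0.37 (adjusted p = 0.0362) after 1.5 hr of IL-2-REH. With all libraries these values were 0.61 ± 0.46 (adjusted p = 0.588, edgeR) and 0.63 ± 0.46 (adjusted p = 0.606). Stard4, a sterol carrier, had RPKM values of 6.6, 6.89 and 5.36 unstimulated, 7.9, 12.2 and 10.8 after 1.5 hr of IL-2, 7, 11 and 9.06 after 1.5 hr of IL-2-REH, 10.1, 11.9 and 9.43 after 4 hr of IL-2 and 6.68, 9.25 and 4.01 after 4 hr of IL-2-REH. All 6 libraries with IL-2 lay above all 3 unstimulated ones. Its log2 fold change with all libraries was 0.88 ± 0.29 after 1.5 hr of IL-2 (adjusted p = 0.211, edgeR) and 0.80 ± 0.29 after 4 hr (adjusted p = 0.176). With replicate 1 left out of every group it rose by 1.22 ± 0.30 after 1.5 hr of IL-2 (adjusted p = 0.0246, edgeR). Srebf2 RPKM in replicates 1, 2 and 3 was 39.3, 45.2 and 36.9 unstimulated, 36.8, 41.5 and 39.2 after 1.5 hr of IL-2, 33.6, 45.6 and 44.8 after 1.5 hr of IL-2-REH, 32.4, 47.8 and 44.2 after 4 hr of IL-2 and 32.2, 46 and 30.5 after 4 hr of IL-2-REH. Its groups overlapped and its level varied less than that of Insig1. Srebf1, Scap and Insig2 ran from 10.6 to 22.4, from 10.6 to 19.7 and from 2.97 to 6.53 RPKM.

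**Figure D2:**
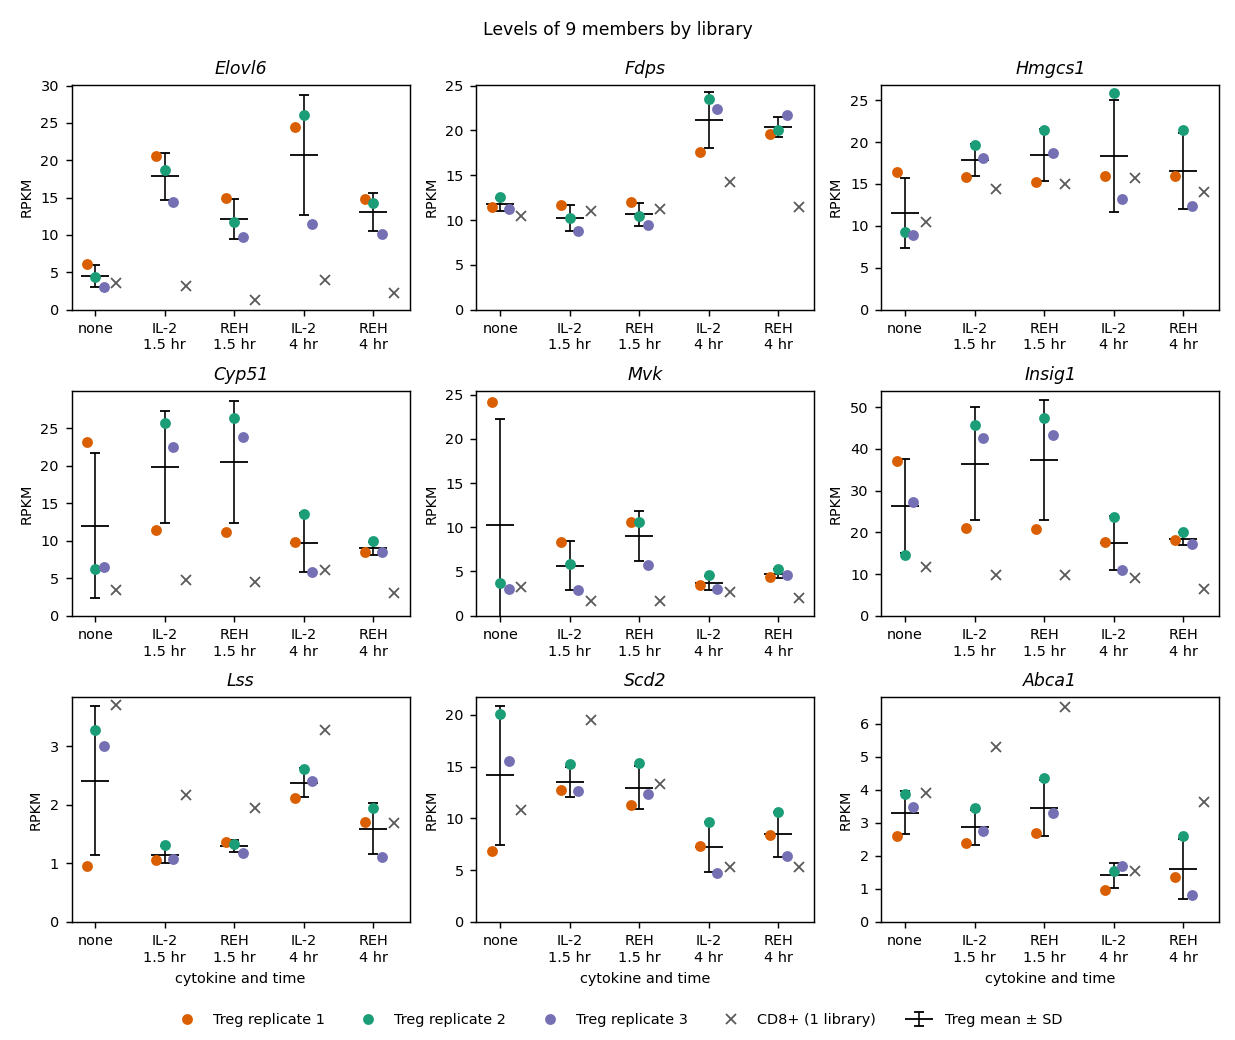
RPKM of 9 members (vertical axis) by cytokine and time (horizontal axis): coloured points are the 3 Treg replicates, black bars their mean ± SD (cut at 0) and crosses the single CD8+ library. Elovl6 separates stimulated from unstimulated Tregs and Fdps separates 4 hr from earlier, while in the Hmgcs1, Cyp51, Mvk and Lss panels unstimulated replicate 1 lies away from replicates 2 and 3.

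The exporters of the LXR branch, Abca1 and Abcg1, and the desaturase Scd2 had lower group means at 4 hr than unstimulated. Abca1, a cholesterol exporter, had RPKM values of 2.59, 3.86 and 3.48 unstimulated, 2.4, 3.45 and 2.75 after 1.5 hr of IL-2, 2.7, 4.37 and 3.3 after 1.5 hr of IL-2-REH, 0.966, 1.55 and 1.7 after 4 hr of IL-2 and 1.36, 2.6 and 0.822 after 4 hr of IL-2-REH. All 3 of the 4 hr IL-2 libraries were below all 3 unstimulated ones, and the 4 hr IL-2-REH group overlapped them by 1 library. The log2 fold change after 4 hr of IL-2 was -1.15 ± 0.35 (adjusted p = 0.113, edgeR), and in the blocked fit, where it was called, -1.17 ± 0.28 (adjusted p = 0.0256). After 4 hr of IL-2-REH it was -1.07 ± 0.35 (adjusted p = 0.196, edgeR). Abcg1, a second exporter, had RPKM values of 10.6, 19.9 and 19.2 unstimulated, 15.4, 15.1 and 12.4 after 1.5 hr of IL-2, 16.1, 17.4 and 15.3 after 1.5 hr of IL-2-REH, 11.5, 12.1 and 9.36 after 4 hr of IL-2 and 12.7, 14.5 and 10.8 after 4 hr of IL-2-REH. It fell by 0.69 ± 0.16 (log2, adjusted p = 0.0179, edgeR) after 4 hr of IL-2 without unstimulated replicate 1 and was at -0.51 ± 0.19 with all libraries. Scd2, a desaturase that makes oleate, had RPKM values of 6.8, 20.1 and 15.5 unstimulated, 12.7, 15.2 and 12.6 after 1.5 hr of IL-2, 11.3, 15.3 and 12.3 after 1.5 hr of IL-2-REH, 7.34, 9.63 and 4.73 after 4 hr of IL-2 and 8.39, 10.6 and 6.32 after 4 hr of IL-2-REH. Without unstimulated replicate 1, Scd2 fell by 1.16 ± 0.25 (log2) after 4 hr of IL-2 and fell by 0.99 ± 0.25 after 4 hr of IL-2-REH, and with all libraries the values were -0.87 ± 0.30 and -0.70 ± 0.30.

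Markers of other cell types were also lower in many of the stimulated libraries. The summed level of the 9 of 10 listed macrophage markers found was 21.0, 125 and 86.2 RPKM in unstimulated replicates 1, 2 and 3, 11.2, 35.6 and 23.8 RPKM after 4 hr of IL-2 and 16, 42.5 and 34.1 RPKM after 4 hr of IL-2-REH. At 1.5 hr, where Lss, Dhcr7 and Nsdhl were low, it was 14.3, 54.1 and 42.4 RPKM after IL-2 and 17.3, 60.4 and 39.9 RPKM after IL-2-REH. It was thus highest before stimulation in every replicate. In the CD8+ libraries it ran from 54.0 RPKM unstimulated to 15.3 and 17.5 RPKM at 4 hr. At most 2 of the 9 markers were at 0 in any library, and in bulk RNA fewer cells of a type and less RNA per cell cannot be told apart. Abca1 in replicates 1, 2 and 3 was at 2.59, 3.86 and 3.48 RPKM unstimulated. At 1.5 hr it was at 2.4, 3.45 and 2.75 RPKM after IL-2 and at 2.7, 4.37 and 3.3 RPKM after IL-2-REH. In CD8+ T cells the macrophage sum was 26.5 and 24.7 RPKM at 1.5 hr of IL-2 and IL-2-REH. Abca1 was at 5.28 and 6.51 RPKM in those libraries and at 3.9 RPKM unstimulated. Summed B cell markers were 10 and 20.3 RPKM in unstimulated replicates 2 and 3 and 3.42 and 10.5 RPKM after 1.5 hr of IL-2, and NK cell markers 4.81 and 2.77 against 1.84 and 0.939 RPKM. The T cell markers Cd3e and Cd3g summed to 452 and 547 RPKM in the same unstimulated libraries and to 290 and 307 RPKM after 1.5 hr of IL-2. Such falls were not seen in every library. The B cell sum after 4 hr of IL-2-REH was 19.3 RPKM in replicate 3, and 4.34 RPKM in replicate 1 against 3.18 RPKM unstimulated. The NK cell sum after 4 hr of IL-2 was 3.67 RPKM in replicate 2, and 0.294 RPKM in replicate 1 against 0.15 RPKM unstimulated. Erythroid markers were at 132 to 230 RPKM in the replicate 3 Treg libraries and at most 20.5 RPKM in all others. The part of these markers in the members' differences was not tested. Nr1h2, which encodes LXR-beta, had RPKM values of 41.6, 34.4 and 28 unstimulated, 46.9, 40.5 and 31.7 after 1.5 hr of IL-2, 44.6, 42.3 and 35.5 after 1.5 hr of IL-2-REH, 30.9, 50.9 and 34.4 after 4 hr of IL-2 and 34.3, 47.4 and 38.7 after 4 hr of IL-2-REH. Its groups overlapped, and its log2 fold change after 1.5 hr of IL-2-REH was 0.35 ± 0.20 with all libraries (adjusted p = 0.513, edgeR) and 0.61 ± 0.18 without unstimulated replicate 1 (adjusted p = 0.0424). Mylip, which marks lipoprotein receptors for degradation, ran from 6.42 to 11.6 RPKM in Tregs.

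Setting the mutein against IL-2 asks whether a weaker agonist gives Tregs less of the same response, and 2 matched pairs of groups at 1 dose were compared, with p-values adjusted over 14992 genes. No member was called at 1.5 hr, where 0.0133% of genes were called, or at 4 hr, where 0.0267% were called. DESeq2 and limma also called 0 members at either time. An unadjusted p under 0.05 (edgeR) was seen for 0 members and 149 genes at 1.5 hr, and for 3 members and 559 genes at 4 hr. The 95% interval of the log2 difference lay within -1 to 1 for 29 of 37 members at 1.5 hr and for 24 at 4 hr, so a 2-fold difference was outside the interval for those and not for the rest. These intervals and those below come from the fit without the replicate block. With the block 0 members were called at either time. Over all genes 0 rose and 2 fell at 1.5 hr, and 1 rose and 9 fell at 4 hr. An unadjusted p under 0.05 (edgeR) was then seen for 1 member and 262 genes at 1.5 hr, and for 4 members and 931 genes at 4 hr.

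Elovl6 was lower with IL-2-REH than with IL-2 in 3 of 3 replicates at either time, but the difference did not pass. Its log2 difference was -0.56 at 1.5 hr, with an interval of -1.19 to 0.06 (adjusted p = 1, edgeR), and -0.71 at 4 hr, with an interval of -1.33 to -0.09 (adjusted p = 1). Stard4 was lower with IL-2-REH in 3 of 3 replicates at 4 hr, at 6.68, 9.25 and 4.01 RPKM against 10.1, 11.9 and 9.43 RPKM, with a log2 difference of -0.74 and an interval of -1.37 to -0.12. Fasn was lower in 3 of 3 replicates as well, with a log2 difference of -0.46 and an interval of -1.08 to 0.15. Fdps differed by -0.11 at 4 hr, with an interval of -0.44 to 0.21. Not all members leaned the same way: 11 were lower with IL-2-REH in 3 of 3 replicates at 4 hr and 9 were higher in 3 of 3, and at 1.5 hr 6 were lower and 11 higher. The share of all genes alike in 3 of 3 replicates was not counted, so these counts have no background. Fads1, among the higher, differed by 0.43 at 4 hr, with an interval of 0.04 to 0.82 (adjusted p = 1, edgeR). Of the 8 mevalonate genes 7 had a negative difference at 4 hr, with a median of -0.16 on the log2 scale, against a median of 0.01 over all genes.

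The change of that difference between the times, tested as an interaction, was called for 0 members and for 0% of genes by edgeR. Unadjusted p-values under 0.05 (edgeR) were seen for 0 members and for 47 of the 14992 genes, and DESeq2 and limma called 0 members. For Elovl6 the interaction was -0.15, with an interval of -1.02 to 0.73 on the log2 scale.

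**Figure D3:**
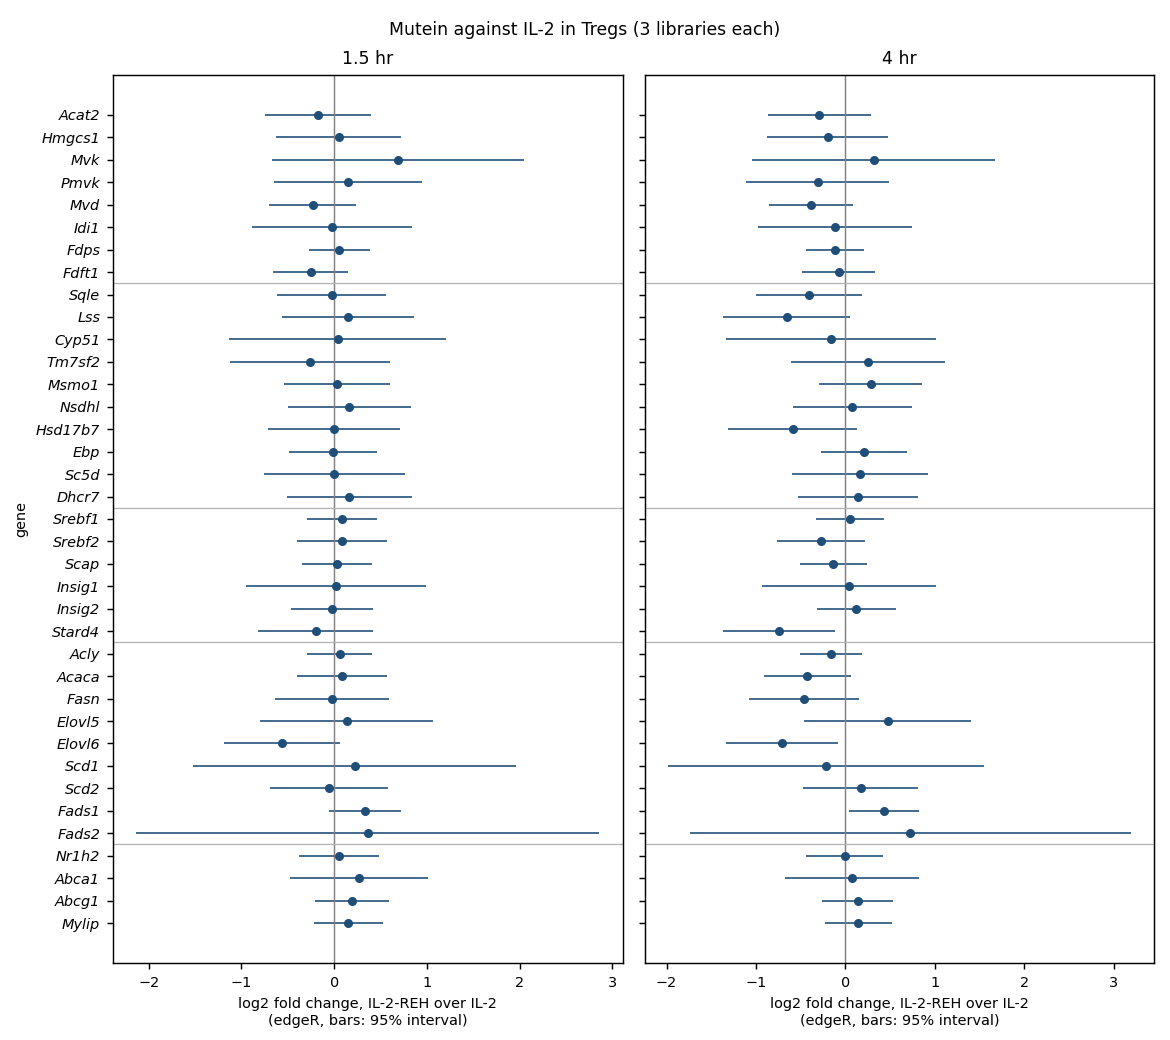
Log2 fold change of IL-2-REH over IL-2 in Tregs (horizontal axis, edgeR) for each of the 37 members (vertical axis, grouped by role) at 1.5 hr (left) and 4 hr (right), with bars for the 95% interval and 3 libraries in each group. Elovl6 lies to the left of 0 at both times, at -0.56 and -0.71, and no member passed the test.

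In CD8+ T cells the ratios compare single libraries, on log2(RPKM + 1), and have no test; 35 members reached a mean of 1 RPKM there, all but Scd1 and Fads2. Against the unstimulated library, 1.5 hr of IL-2 put 1 member past a 2-fold ratio, against 7.24% of the 10021 genes, and 4 hr of IL-2 put 1 member past it, against 4.71%. IL-2-REH put 2 members past it at 1.5 hr, against 8.57%, and 0 at 4 hr, against 6.11%. The share of members past it was below that of all genes in each of these ratios.

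Acat2 was the 1 CD8+ member past a 2-fold ratio between the cytokines, at 4 hr. Acat2 RPKM was 4.76 unstimulated, 9.83 and 6.07 after 1.5 hr of IL-2 and IL-2-REH, and 15.4 and 4.25 after 4 hr of IL-2 and IL-2-REH. It was highest after 4 hr of IL-2 and at the unstimulated level after 4 hr of IL-2-REH, with a mutein to IL-2 log2 ratio of -1.64. Dhcr7 RPKM was 6.49 unstimulated, 2.64 and 2.5 after 1.5 hr of IL-2 and IL-2-REH, and 4 and 3.51 after 4 hr of IL-2 and IL-2-REH. Both 1.5 hr libraries were more than 2-fold under the unstimulated one. Elovl6 RPKM was 3.55 unstimulated, 3.15 and 1.27 after 1.5 hr of IL-2 and IL-2-REH, and 3.93 and 2.25 after 4 hr of IL-2 and IL-2-REH. The CD8+ libraries spanned 1.27 to 3.93 RPKM, and that with 1.5 hr of IL-2-REH was the lowest, at a log2 ratio of -1.005, where the median of all genes was -0.122.

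At 4 hr the CD8+ genes of cholesterol synthesis were lower with IL-2-REH than with IL-2 in nearly every case. Of the mevalonate genes 7 of 8 were lower and Pmvk was level, at a log2 ratio of -0.001, and 9 of 10 sterol genes were lower, with median log2 ratios of -0.30 and -0.31, where 38.2% of all genes were lower and their median was 0.08. Sqle, the squalene epoxidase, was at 1.91 against 4.4 RPKM, Cyp51 at 2.99 against 6.05 RPKM and Mvd at 2.74 against 5.62 RPKM. Taken on RPKM without the added 1, these ratios were 0.434, 0.493 and 0.487, and the added 1 brings them inside 2-fold. Of the 35 members 25 were lower (71.4%, Pmvk counted), and 1, Acat2, was past a 2-fold ratio, against 2.23% of genes. The 3 LXR-branch genes with higher values included Abca1, at 3.64 against 1.53 RPKM, and Mylip, at 20.4 against 11.6 RPKM. At 1.5 hr 24 members were lower with IL-2-REH, where 70.5% of all genes were, and 0 were past 2-fold against 0.868% of genes.

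The same CD8+ genes were higher after 4 hr than after 1.5 hr of IL-2. All 8 mevalonate genes and 9 of 10 sterol genes were higher, with median log2 ratios of 0.32 and 0.45, where 42.8% of all genes were higher and their median was -0.06. This ratio and the one between the cytokines at 4 hr share the 4 hr IL-2 library, so they are not independent. The 2 members past a 2-fold ratio, against 2% of genes, were both lower. Scd2 RPKM was 10.8 unstimulated, 19.5 and 13.3 after 1.5 hr of IL-2 and IL-2-REH, and 5.27 and 5.29 after 4 hr of IL-2 and IL-2-REH. Abca1 RPKM was 3.9 unstimulated, 5.28 and 6.51 after 1.5 hr of IL-2 and IL-2-REH, and 1.53 and 3.64 after 4 hr of IL-2 and IL-2-REH. After IL-2-REH, 1 member, Scd2, was past 2-fold between the times, against 1.89% of genes.

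The counts for IL-2-REH against IL-2 at 4 hr were mixed over the 3 Treg replicates. The sterol genes lower with IL-2-REH numbered 5, 7 and 2 of 10 in Treg replicates 1, 2 and 3, and the mevalonate genes 5, 7 and 5 of 8. Of all 10473 genes at or above a mean of 1 RPKM in Tregs, 3556, 4584 and 4469 were lower. Replicate 3 includes the 4 hr IL-2 library with the fewest reads, 20201392.

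**Figure D4:**
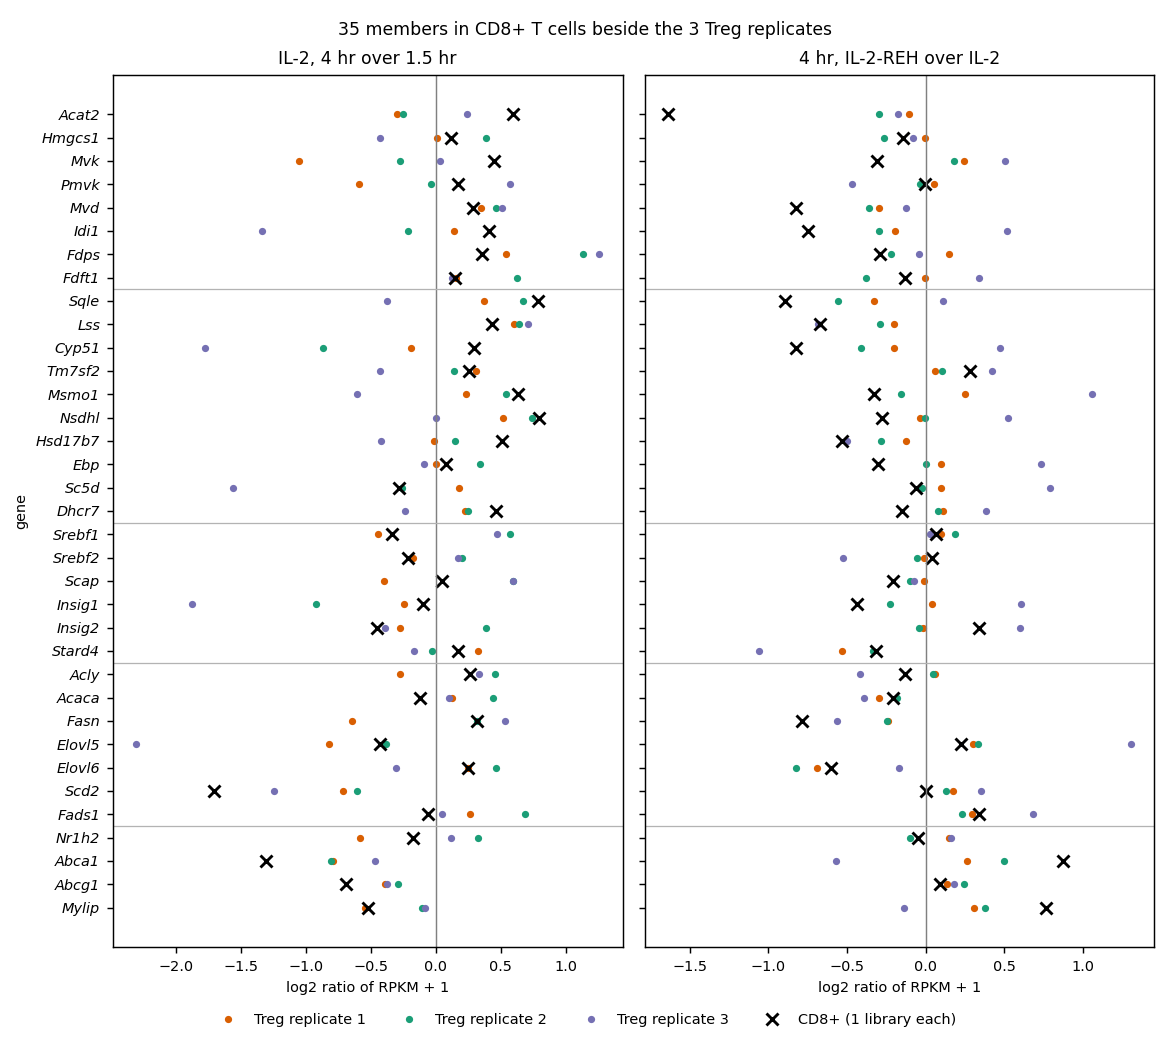
Log2 ratio of RPKM + 1 (horizontal axis) for the 35 members at or above a mean of 1 RPKM in CD8+ T cells (vertical axis, grouped by role), for 4 hr over 1.5 hr of IL-2 (left) and IL-2-REH over IL-2 at 4 hr (right). Crosses are the CD8+ ratio of 1 library to 1, and points the 3 Treg replicates; on the right the CD8+ crosses of 7 of 8 mevalonate and 9 of 10 sterol genes lie below 0, and that of Pmvk lies at 0.

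Between the cell types, more members were lower than higher in CD8+ T cells in every condition, and so were more of all genes. Each was judged by whether the single CD8+ library fell outside the range of the 3 matched Treg libraries. Unstimulated, 15 of 35 members (42.9%) were below that range and 4 (11.4%) above it, against 35% and 21.7% of 10825 genes. After 1.5 hr of IL-2 the counts were 17 (48.6%) below and 9 (25.7%) above, against 32.5% and 30.7% of genes. After 1.5 hr of IL-2-REH they were 23 (65.7%) below and 6 (17.1%) above, against 39.3% and 25.4%. After 4 hr of IL-2, 10 (28.6%) were below, a smaller share than the 33.4% of all genes, and 7 (20%) above, against 23.7%. After 4 hr of IL-2-REH, 19 (54.3%) were below and 3 (8.57%) above, against 40.1% and 24.5%.

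Fdft1, the squalene synthase, Srebf2 and Insig1 were below the Treg range in all 5 conditions. Insig1 was at 6.45 to 11.7 RPKM in CD8+ T cells and at 10.9 to 47.5 RPKM in Tregs. Srebf2 was at 21.6 to 29.6 RPKM in CD8+ T cells, below the 30.5 RPKM that was its lowest value in any Treg library. Mylip was above the Treg range in all 5 conditions, at 11.6 to 20.4 RPKM against 6.42 to 11.6 RPKM, and Lss, Acaca and Abca1 were above it in 4. Elovl6 was within the Treg range unstimulated and below it in all 4 stimulated conditions.

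A list of 36 other genes of lipid synthesis and use, 35 of which passed the filter on low counts, gave few calls with all 15 libraries. After 4 hr of IL-2, 0 rose and 2 fell. These were Acss2, which makes acetyl-CoA from acetate, at -0.83 ± 0.19 on the log2 scale (adjusted p = 0.0418, edgeR), and Cpt1a, which admits long-chain fatty acids to mitochondria for oxidation, at -0.92 ± 0.22 (adjusted p = 0.0413). None was called after IL-2-REH or after 1.5 hr of IL-2. For IL-2-REH at 4 hr, IL-2-REH at 1.5 hr and IL-2 at 1.5 hr, 5, 3 and 6 of the list had an unadjusted p under 0.05 (edgeR). Over all 14992 genes the numbers were 1999, 1702 and 2068. In the fit without unstimulated replicate 1, where all 36 were tested, 5 rose and 1 fell after 1.5 hr of IL-2 and 4 rose and 0 fell after 1.5 hr of IL-2-REH, where 12.9% and 12.1% of all genes were called. At 4 hr that fit gave 4 rises and 3 falls for IL-2 and 4 rises and 2 falls for IL-2-REH, where 8.87% and 6.93% of all genes were called. Hacd3, a dehydratase of the elongation cycle in which ELOVL enzymes take the first step, rose at 1.5 hr of IL-2 and IL-2-REH by 1.78 ± 0.17 and 1.98 ± 0.17 on the log2 scale in that fit, and Acsl3, an acyl-CoA synthetase, by 2.01 ± 0.33 and 2.28 ± 0.34. With all libraries Hacd3 was at 0.59 ± 0.45 (adjusted p = 0.592, edgeR) and 0.79 ± 0.45 (adjusted p = 0.51), and Acsl3 at 0.96 ± 0.47 (adjusted p = 0.384) and 1.23 ± 0.47 (adjusted p = 0.399).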

How the data were processed

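RNA was sequenced from 15 Treg and 5 CD8+ T cell libraries. The authors aligned the reads to mm10 with TopHat2 2.1.1 and Bowtie2 2.2.6, and used reads with a unique position. Per RefSeq transcript the authors deposited a count of exon reads and an RPKM value (SAMtools 0.1.8 and bedtools 2.25.0 are also named in the submitters' processing notes). Use of strand was not given in the sources used here. For each symbol the transcript with the most reads over the 20 libraries was taken. The deposited counts were tested over all genes with edgeR 4.0.16 (quasi-likelihood test, TMM factors, filter on low counts, R 4.3.3), with 1 coefficient for each of the 5 Treg groups and Benjamini-Hochberg adjustment at 0.05. The test was checked on simulated counts, drawn independently with the same dispersion in every library. They held no replicate effect and no outlying library, so the check does not bear on those features of the data. CD8+ groups hold 1 library each, so the deposited RPKM values were compared as log2 ratios with a pseudocount of 1 and a mean RPKM of at least 1.

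Alternatives were DESeq2 1.42.0, limma 3.58.1, no filter, no TMM factors, the longest transcript, only the groups compared, each replicate left out, and the replicate number as a block. Same-numbered libraries deviated together, with correlations over genes of 0.12 to 0.84, so the numbers pair the samples. Members described by library were those called in the fit with all libraries, with the block or without unstimulated replicate 1, those past a 2-fold CD8+ ratio, and the 2 most abundant of each role. Fasn and Stard4 fall outside this rule and were added after their values were seen. The members and lists were chosen with earlier results of these data known. Members not described by library are given by their range.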

Additional observations from a re-analysis of the deposited data

Results flagged for a closer look

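Elovl6 moved in opposite directions in the cell types after 1.5 hr of IL-2-REH. In CD8+ T cells its log2 ratio of RPKM + 1 to the unstimulated library was -1.005, from 3.55 to 1.27 RPKM, while it was higher in 3 of 3 Treg replicates, each by at least 0.5 on that scale, a minimum set after the values were seen. The CD8+ value rests on 1 library in each condition, and the difference between the cell types was not tested.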

How the results depend on the processing

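The number of members called in Tregs depended on which libraries were used. Leaving out 1 library or 1 replicate number moved it over 0 to 12 for IL-2 at 1.5 hr, 0 to 9 for IL-2 at 4 hr, 0 to 11 for IL-2-REH at 1.5 hr and 0 to 4 for IL-2-REH at 4 hr, over 0 to 3 and 0 to 2 between the times for IL-2 and IL-2-REH, and over 0 to 0 for IL-2-REH against IL-2 at either time and for the interaction. With only the groups compared, the calls for IL-2 at 1.5 hr, IL-2 at 4 hr and IL-2-REH at 4 hr numbered 0, 0 and 0. Shares of all genes were not counted for those fits, for DESeq2 or limma, or without the filter or TMM factors. With the replicate block, IL-2-REH at 1.5 hr gave 1 call and IL-2 over time 1, and no other count of members moved by over 1.5 times. Without unstimulated replicate 1 and with the replicate block, an alternative chosen after seeing the data, the counts were 15 and 13 for IL-2 and 16 and 10 for IL-2-REH, where 26.9%, 21%, 25.4% and 16.7% of all genes were called. The highest counts above, 12, 9 and 11, came without replicate 1 of every group, where 17.3%, 13.4% and 15.7% of all genes were called. The 3 and 2 between the times came from that fit too. Of its 14478 genes, 377 were called higher and 248 lower for IL-2, and 287 and 287 for IL-2-REH. The 4 for IL-2-REH at 4 hr came without unstimulated replicate 1, where 6.93% of all genes were called. DESeq2 gave 1 for IL-2-REH at 1.5 hr, and 2 and 2 between the times. For IL-2-REH at 4 hr, limma gave 0 and no filter on low counts gave 1, and without TMM factors IL-2 over time gave 1. Mvk after 1.5 hr of IL-2-REH turned from -0.19 to 1.56 without replicate 1 (-0.80 without replicate 2), to 1.63 without unstimulated replicate 1, and to 1.54 with the replicate block as well. Its cause was not tested, nor was that of the other moves.

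Among CD8+ ratios a pseudocount of 0.1 put 4, 3, 6 and 2 members past 2-fold against the unstimulated library (IL-2 at 1.5 hr, IL-2 at 4 hr, IL-2-REH at 1.5 hr and at 4 hr), and 1 and 4 between the cytokines at 1.5 hr and 4 hr. The share of all genes was not counted under this pseudocount or under the other CD8+ alternatives here. These counts therefore have no background to be judged by. A log2 threshold of 2 left 0 for IL-2 at 1.5 hr, 0 for IL-2 at 4 hr, 0 for IL-2-REH at 1.5 hr, 0 between the cytokines at 4 hr, and 0 and 0 between the times. A minimum of 5 RPKM left 0 and 0 at 1.5 hr of IL-2 and IL-2-REH and 1 for IL-2 over time, and centring on the median left 1 for IL-2-REH at 1.5 hr. Over single genes, 395 alternatives were counted as unchanged, 63 passed the threshold anew, 28 fell short, 4 moved and 3 turned direction. For Treg results, unchanged meant the same side of the threshold, and a turn counted only where the main fit or the alternative called the gene. For CD8+ ratios, unchanged meant the same direction and a shift within a fixed limit, whichever side of 2-fold the ratio fell.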
